A study of Mus musculus with 9 samples.

Results

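The 39 Hox genes of the mouse were followed in IECs of the colon, as the rows of the count table whose symbol is Hox, a letter from a to d and a paralog number, out of 46095 symbols in all. Of these 39 genes, 11 belong to the Hoxa cluster, 10 to Hoxb, 9 to Hoxc and 9 to Hoxd. Membership rests on the gene name alone and on no measured value. Genes with paralog numbers 1 to 3 are called anterior here, 4 to 8 central and 9 to 13 posterior.

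RNA-seq had been made from IECs that were released with EDTA from the colons of mice on a C57BL/6j background. The comparison asks what loss of Setd2, which trimethylates histone H3 at K36, changes in an epithelium that already lacks Smad4, a transcription factor of TGF-β and BMP signalling. Group S (4 libraries, S-1 to S-4) carried the Smad4 knockout, and group DDKO (5 libraries, DDKO-1 to DDKO-5) carried the knockouts of both Smad4 and Setd2. In both groups Villin-Cre deleted the floxed alleles in the intestinal epithelium and in no other colon cell type by design, so RNA of cells outside the epithelium keeps the intact genes. At 8 weeks of age every mouse was injected with AOM (10 mg/kg), a colon carcinogen, and 2% DSS, an irritant of the mucosa, was then added to the drinking water. The cells were taken after 10 days of AOM/DSS. No library of untreated mice or of mice with an intact Smad4 gene was compared. The labels do not say whether a library is 1 mouse, so the p-values measure the spread between these libraries.

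Hox genes encode homeodomain transcription factors that give cells their position along the head-to-tail axis of the body. They stand in 4 clusters, and within a cluster the order of the genes follows the order in which they are used along the axis, the anterior genes at one end and the posterior genes at the other. In the adult gut the pattern is partly kept, with posterior paralogs most active towards the rectum. Polycomb proteins keep parts of a cluster silent, Trithorax proteins and retinoic acid open them, the caudal factors Cdx1 and Cdx2 act upstream of the central genes, and the TALE proteins Meis, Pbx and Pknox bind DNA together with Hox proteins.

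In RefSeq on GRCm38.p6, the build that corresponds to the mm10 named in the submitters' processing notes, the Hoxa genes lie on the minus strand of chromosome 6. The Hoxb genes lie at chr11:96194316-96368254, the Hoxc genes at chr15:102921131-103036856 and the Hoxd genes at chr2:74668225-74765142, each cluster on the plus strand throughout. The last 3 are 173.939, 115.726 and 96.918 kb long, and every cluster is transcribed from its posterior towards its anterior end. RefSeq promoter windows of 300 bases, most of them upstream of the annotated start, were at hand for 22 of the 39 genes, as 24 windows. The windows of 3 genes are shown because their genes passed the test, Hoxd13 and Hoxd8 as 2 genes of one cluster that moved in opposite directions, and Hoxa7 because it holds TTTATG, a motif bound by caudal proteins, on its own strand and at 2 places. Capitals mark that motif. Hoxd13 lies at chr2:74667975-74668274 (plus strand), Hoxd8 at chr2:74704365-74704664 (plus strand) and Hoxa7 at chr6:52218524-52218823 (minus strand).
Hoxd13: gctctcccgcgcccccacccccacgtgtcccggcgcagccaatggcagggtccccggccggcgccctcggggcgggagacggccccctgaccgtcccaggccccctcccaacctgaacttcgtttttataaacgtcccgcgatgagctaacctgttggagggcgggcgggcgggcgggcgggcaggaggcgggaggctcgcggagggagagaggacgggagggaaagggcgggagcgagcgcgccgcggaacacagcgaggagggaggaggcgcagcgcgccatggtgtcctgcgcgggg
Hoxd8: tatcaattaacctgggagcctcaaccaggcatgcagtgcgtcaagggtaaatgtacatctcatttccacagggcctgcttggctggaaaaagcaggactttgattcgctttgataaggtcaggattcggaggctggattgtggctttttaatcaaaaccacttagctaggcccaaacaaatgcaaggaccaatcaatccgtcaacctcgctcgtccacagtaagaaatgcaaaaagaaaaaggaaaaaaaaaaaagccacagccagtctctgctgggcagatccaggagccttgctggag
Hoxa7: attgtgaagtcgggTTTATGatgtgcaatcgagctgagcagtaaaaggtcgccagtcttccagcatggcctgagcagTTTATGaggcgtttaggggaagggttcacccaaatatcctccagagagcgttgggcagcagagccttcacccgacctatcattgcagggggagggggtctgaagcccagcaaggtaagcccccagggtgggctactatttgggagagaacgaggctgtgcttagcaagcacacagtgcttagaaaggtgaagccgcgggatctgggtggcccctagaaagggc
The Hoxd13 window has a GC content of 74.3%, that of Hoxd8 46.7% and that of Hoxa7 55.7%, against a median of 52.7% over 32851 promoter windows. TTTATG, read on both strands, occurred in 5 of the 24 Hox windows and in 11.9% of all windows. TGATNNAT, bound by Hox and Pbx proteins together, occurred in 4 of 24 and in 8.85% of all windows. TGACAG, bound by Meis proteins, occurred in 2 of 24 and in 19.2% of all windows. The windows of Hoxd13 and Hoxd8 held none of the 3. The TTTATG matches of Hoxa7 begin at -236 and -173 from its annotated start. These are matches of letters, and binding was not measured.

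The clusters also hold microRNAs of the miR-196 family, which are known to target Hox messages. The mature sequences are given, with the seed (bases 2 to 8) in capitals, because the precursor row of Mir196a-1, between Hoxb9 and Hoxb13, was abundant enough for the test.
mmu-miR-196a-5p: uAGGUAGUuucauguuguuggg
mmu-miR-196b-5p: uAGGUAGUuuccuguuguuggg
Both share the seed AGGUAGU.

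The libraries held 12487129 to 17120202 counts, so that 1 count corresponds to 0.0594 to 0.0794 CPM (counts scaled to the library size corrected by TMM, the unit of all levels given here unless stated otherwise). Setd2 itself was at 118, 120.1, 99.2 and 114 CPM in S-1 to S-4 and at 57.8, 87.1, 55.7, 53.9 and 76.1 CPM in DDKO-1 to DDKO-5. It was lower in every DDKO library than in every S library (log2 fold change -0.77, SE 0.14, adjusted p = 0.00756, edgeR). Smad4 was at 54.3 to 92.7 CPM in S and 38.2 to 114 CPM in DDKO, which is a count over the whole gene and does not check the deletion. The epithelial marker Epcam was at 1890.3 to 1975 CPM in S and 1805 to 2029 CPM in DDKO, and the 10 epithelial genes of a fixed list, Epcam among them, summed to 20418 to 25202 CPM in S and 15102 to 20608 CPM in DDKO. DDKO-1, DDKO-2 and DDKO-5 held 3857 to 4907 counts summed over Kdm5d, Uty, Eif2s3y and Ddx3y, which are Y-linked, and the other 6 libraries held 0 to 28. Every S library is thus of the second kind, and the Hox calls are given below with and without the first.

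Hox transcripts made up 0.0465% to 0.0650% of all counts, 8118 to 10567 counts in each S library and 5917 to 8158 in each DDKO library. Per length, in CPM per kb of annotated exon, the posterior gene Hoxb13 was the most abundant Hox transcript, at 78.5 ± 15.99 (SD, n = 4) in S and 45.8 ± 12.9 (SD, n = 5) in DDKO. It was followed in S by Hoxd13 (32.4 ± 6.91 CPM per kb), Hoxb9 (23.6 ± 2.88 CPM per kb), Hoxa9 (18.4 ± 3.34 CPM per kb) and Hoxa10 (15.5 ± 2.01 CPM per kb). All 5 are posterior paralogs. In DDKO the order at the top was Hoxb13, Hoxb9 (35.7 ± 4.92 CPM per kb), Hoxd13 (16.7 ± 4.76 CPM per kb) and the central gene Hoxb6 (16.1 ± 2.69 CPM per kb). The S libraries of Hoxb13 did not overlap those of Hoxd13, the next gene in order. Of the 38 pairs of neighbours in the order of S levels, 36 had overlapping ranges, but pairs of genes with 0 counts in S overlap in any case. Down to Hoxb2, the lowest gene abundant enough for the test, the other step without overlap was that from Hoxd12 to Hoxa4. Most steps among these genes are thus within the spread of the libraries. Hoxa7 and Hoxa3 were the most abundant central and anterior genes in S, at 14.6 ± 1.53 and 12.5 ± 1.89 CPM per kb.

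**Figure D1:**
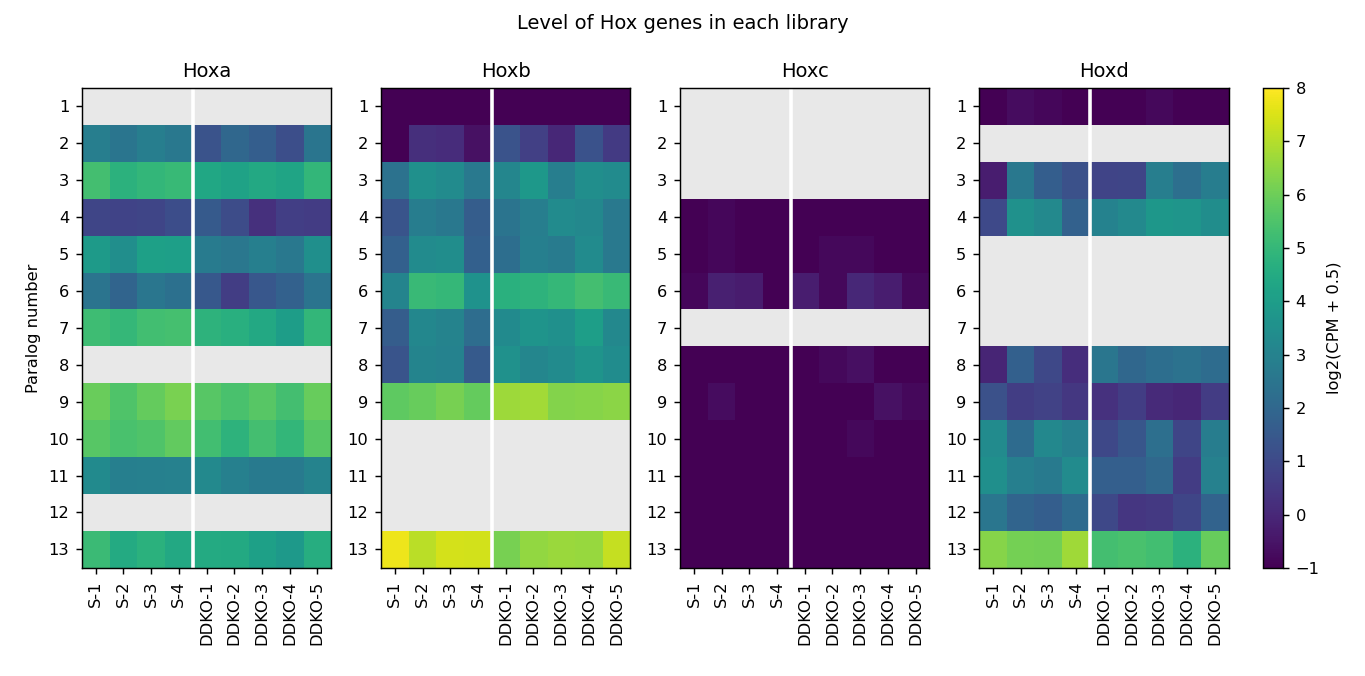
Each panel is a cluster, with the paralog number on the vertical axis and the 9 libraries on the horizontal axis. The colour gives log2(CPM + 0.5), grey marks paralog numbers that are not drawn, and the white line separates S from DDKO. Hoxb13 and Hoxb9 are among the brightest rows, the Hoxc panel is dark throughout, and Hoxb2 to Hoxb8 are darker in S-1 and S-4 than in S-2 and S-3.

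The Hoxc cluster was nearly silent. Hoxc11, Hoxc12 and Hoxc13 had 0 counts in every library, where 3 counts, the limit that a count of 0 allows, are 0.178 to 0.238 CPM. Hoxc4, Hoxc5, Hoxc8, Hoxc9 and Hoxc10 had at most 2 counts in any library, and Hoxc6, the highest, had 1, 6, 5 and 0 counts in S and 5, 1, 7, 4 and 1 counts in DDKO. Summed, the 9 Hoxc genes reached 0.241 ± 0.270 CPM (SD, n = 4) in S and 0.386 ± 0.246 CPM (SD, n = 5) in DDKO, against 69.3 CPM or more for each of the other clusters in either group. A difference between the genotypes in the Hoxc genes was not detectable at this depth.

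The most anterior gene of Hoxb and that of Hoxd were silent or nearly so too. Hoxb1, which patterns the hindbrain in the embryo, had 0 counts in all 9 libraries, and Hoxd1 had 0 to 2. Both stayed below the filter on low counts, as did the 9 Hoxc genes. The filter left 27 of the 39 genes for the test between the genotypes.

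Of the 27 tested Hox genes, 8 were called at an adjusted p under 0.05 (edgeR's quasi-likelihood test), 2 higher and 6 lower in DDKO. Over all 14593 genes tested, 13.3% were called, 6.76% higher and 6.54% lower. Hoxb9 and Hoxd8 were higher, and Hoxa3, Hoxa5, Hoxa7, Hoxb13, Hoxd12 and Hoxd13 were lower. The log2 fold change was above 0 for 11 of the 27 and below 0 for 16. All 10 tested Hoxa genes had a negative log2 fold change (Hoxa4, near 0, turned positive under another scaling), 8 of 9 tested Hoxb genes a positive one (Hoxb5, near 0, turned negative without the filter), and in Hoxd the 3 tested genes up to Hoxd8 were positive and the 5 from Hoxd9 to Hoxd13 negative. By position, 10 of 11 tested posterior genes were on the negative side, Hoxb9 being the exception, and 7 of 11 central genes were on the positive side, Hoxa4 to Hoxa7 being the rest. The median log2 fold change of all genes tested was -0.0006.

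Few of the differences were free of overlap. Every DDKO library lay above every S library for Hoxb7, Hoxb8, Hoxb9 and Hoxd8, and every DDKO library lay below every S library for Hoxa7 and Hoxd13. Over all genes tested, 8.34% lay above and 8.87% below in this way. At an unadjusted p under 0.05 with a fold over 1.5, 5 Hox genes were higher and 9 lower, beside 7.54% and 6.24% of all genes tested.

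The calls did not rest equally on all libraries. With a term for the libraries with Y-linked counts, edgeR called 1285 genes in all. No Hox gene was called higher (5 at an unadjusted p under 0.05, not counted over all genes, Hoxb9 at an adjusted p of 0.0690 and Hoxd8 at 0.0840). Lower were 5, namely Hoxa2, Hoxa5, Hoxa7, Hoxa13 and Hoxd13. The calls of Hoxa3, Hoxb13 and Hoxd12 were lost (adjusted p = 0.0751, 0.0875 and 0.0678). In the 6 libraries without Y-linked counts, Hoxb9 was higher and 10 genes were lower, 6 of them those called over all libraries. That fit called 2930 of 15138 genes in all. Without DDKO-5 the lower genes numbered 11 and without S-3 only Hoxd13 remained among them, in fits that called 2696 and 847 genes in all. Over the 9 fits that each left out 1 library, Hoxd13 and Hoxb9 were called in all 9 and Hoxa5 in 8, the exception being the fit without S-3 (adjusted p = 0.0513). Hoxb13 was called in 4, without S-2, DDKO-1, DDKO-3 or DDKO-5, and Hoxd8 in 3, without S-2, DDKO-2 or DDKO-5. Hoxa3 was called in 2, without S-2 or DDKO-5, Hoxa7 in 2, without DDKO-1 or DDKO-5, and Hoxd12 in 1, without DDKO-5.

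**Figure D2:**
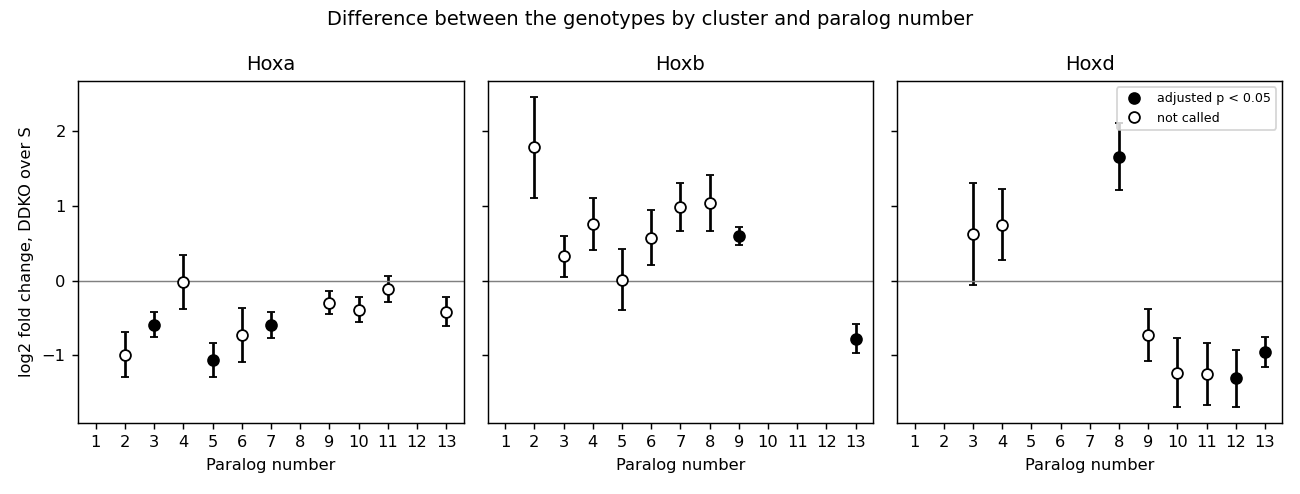
The log2 fold change of DDKO over S is plotted against the paralog number for the tested genes of the Hoxa, Hoxb and Hoxd clusters, with bars for the SE. Filled points had an adjusted p under 0.05. In Hoxa every point lies below 0 (Hoxa4, at -0.01, turned positive with library size alone), in Hoxb the only point below 0 is Hoxb13 (Hoxb5, at 0.01, turned negative without the filter), and in Hoxd the points pass from positive at Hoxd8 (1.66) to negative at Hoxd9 (-0.72) and beyond.

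Hoxa5, a central gene that acts in the patterning of gut and lung, had the largest called decrease of its cluster. It was at 14.3, 10.3, 16.95 and 16.4 CPM in S-1 to S-4 and at 6.22, 5.41, 6.85, 5.58 and 10.6 CPM in DDKO-1 to DDKO-5. DDKO-5 was the highest DDKO library by far and lay just above S-2, while the other 4 DDKO libraries were below every S library. This is a log2 fold change of -1.06 (SE 0.22, adjusted p = 0.0130). Hoxa7 was at 36.0, 31.3, 38.0 and 40.3 CPM in S and at 27.6, 25.2, 21.3, 15.5 and 30.9 CPM in DDKO, without overlap but with DDKO-5 close to S-2. It fell by 0.59 on the log2 scale (SE 0.17, adjusted p = 0.0465). Of the annotated exon length of Hoxa7, 23.3% is shared with Hoxaas3 on the opposite strand, and the counting is not stated to use strand.

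Hoxa3, an anterior gene with roles in pharyngeal organs, was at 38.8, 27.04, 30.8 and 32.8 CPM in S and at 19.9, 17.6, 21.0, 18.4 and 30.5 CPM in DDKO. Again 4 DDKO libraries lay below every S library and DDKO-5 among them. Hoxa3 had a log2 fold change of -0.59 (SE 0.17, adjusted p = 0.0413). Hoxa2, its neighbour, was at 5.17 to 6.74 CPM in S and at 1.73 to 5.196 CPM in DDKO, with a log2 fold change of -0.99 (SE 0.30) that missed the threshold (adjusted p = 0.0528) and passed it by DESeq2 (adjusted p = 0.0142), by limma-voom (adjusted p = 0.0101), with the Y term, with the replicate block, with a minimum of 10 counts in every library, without DDKO-5 and in the 6 libraries without Y-linked counts (adjusted p = 0.00705). Hoxa6 was at 3.27 to 5.22 CPM in S and at 1.07 to 5.04 CPM in DDKO (log2 fold change -0.73, SE 0.36, adjusted p = 0.200). By edgeR it was called lower without DDKO-5 (adjusted p = 0.0406) and with the replicate block (adjusted p = 0.0389). Hoxa4 was low in both groups, at 1.25 to 1.67 CPM in S and 0.699 to 2.44 CPM in DDKO, with no measurable difference (log2 fold change -0.01, SE 0.36).

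Over all libraries and with no added term, none of the 4 posterior Hoxa genes was called by edgeR, DESeq2 or limma-voom. Hoxa10 alone had an unadjusted p under 0.05 by edgeR, beside 4466 of all 14593 genes tested. Hoxa9 was at 60.9, 45.5, 58.7 and 71.7 CPM in S and at 50.0, 41.8, 50.5, 38.9 and 60.1 CPM in DDKO, a log2 fold change of -0.29 (SE 0.15, adjusted p = 0.212). Hoxa10 was at 42.3 to 56.8 CPM in S and 27.4 to 50.2 CPM in DDKO (log2 fold change -0.39, SE 0.17, adjusted p = 0.139). By edgeR it was called lower in the libraries without Y-linked counts (adjusted p = 0.0480), without DDKO-5 (adjusted p = 0.0348) and with the replicate block (adjusted p = 0.0468). Hoxa13, which with Hoxd13 is needed for the formation of the hindgut, was at 35.0, 22.2, 26.5 and 21.0 CPM in S and at 22.0, 21.3, 16.6, 14.2 and 24.1 CPM in DDKO. Its log2 fold change was -0.41 (SE 0.19, adjusted p = 0.165) over all libraries and -0.76 (SE 0.21, adjusted p = 0.0331) in those without Y-linked counts. With the Y term edgeR called Hoxa13 too (adjusted p = 0.0464). Hoxa11 differed least among them (log2 fold change -0.11, SE 0.17), and 24.8% of its exon length is shared with Hoxa11os on the opposite strand.

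In the Hoxb cluster, Hoxb9 and Hoxb13 moved in opposite directions. Hoxb9 was at 54.1, 59.3, 71.4 and 58.1 CPM in S and at 103, 108, 80.8, 81.4 and 86.2 CPM in DDKO. The lowest DDKO library stood above the highest S library. Its log2 fold change was 0.60 (SE 0.12, adjusted p = 0.00955), the smallest adjusted p of any Hox gene. The 2 highest libraries, DDKO-1 and DDKO-2, are among the 3 with Y-linked counts, and with a term for those the log2 fold change was 0.42 (SE 0.13, adjusted p = 0.0690).

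Hoxb13, the most posterior gene of its cluster and a marker of the distal colon and prostate, was at 221, 135, 169 and 168 CPM in S and at 70.2, 91.8, 98.9, 96.8 and 148 CPM in DDKO. It overlapped only through DDKO-5, which stood above S-2. Hoxb13 had a log2 fold change of -0.78 (SE 0.20, adjusted p = 0.0264).

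The central Hoxb genes, Hoxb4 to Hoxb8, which are used in the trunk, were higher on average in DDKO. None was called by edgeR, and 2 of the 5 had an unadjusted p under 0.05, beside 4466 of all 14593 genes tested. Hoxb8 was at 2.05, 7.90, 7.43 and 2.46 CPM in S and at 11.3, 8.32, 9.58, 12.2 and 9.93 CPM in DDKO. Hoxb7 was at 2.63, 8.56, 7.62 and 4.13 CPM in S and at 9.29, 12.2, 10.8, 16.04 and 8.69 CPM in DDKO. Both lay higher in every DDKO library than in any S library, and both missed the threshold, with log2 fold changes of 1.04 (SE 0.37, adjusted p = 0.0903) and 0.99 (SE 0.33, adjusted p = 0.0694). DESeq2 and limma-voom called both. Hoxb6, the most abundant of the central Hoxb genes, was at 7.89, 33.4, 31.7 and 11.6 CPM in S and at 26.0, 27.8, 31.4, 39.5 and 33.7 CPM in DDKO. S-2 and S-3 lay within the DDKO range and S-1 and S-4 far below it (log2 fold change 0.58, SE 0.37, adjusted p = 0.313).

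Hoxb4 was at 2.05 to 6.54 CPM in S and 4.999 to 9.65 CPM in DDKO (log2 fold change 0.76, SE 0.35, adjusted p = 0.168). Hoxb5 had similar means in the groups, 6.39 ± 4.07 CPM (SD, n = 4) and 6.49 ± 1.93 CPM (SD, n = 5), within a wide spread in S (2.86 to 10.1 CPM). Of the anterior genes, Hoxb3 was at 4.81 to 10.8 CPM in S and 6.78 to 13.3 CPM in DDKO (log2 fold change 0.32, SE 0.27), and Hoxb2 was at 0 to 0.654 CPM in S and 0.489 to 1.99 CPM in DDKO. Hoxb2 thus had at most 11 counts in an S library and its log2 fold change of 1.79 (SE 0.68, adjusted p = 0.104) is imprecise.

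The Hoxd cluster divided between Hoxd8 and Hoxd9. Hoxd8 was at 0.449, 2.91, 1.41 and 0.635 CPM in S and at 5.26, 3.49, 4.26, 4.72 and 4.03 CPM in DDKO. Every DDKO library was above every S library, although S-2, with 49 counts, came near DDKO-2, also with 49. The log2 fold change was 1.66 (SE 0.45, adjusted p = 0.0346). Hoxd4 was at 1.48, 11.2, 8.97 and 2.94 CPM in S and at 7.37, 8.89, 13.1, 12.6 and 10.2 CPM in DDKO (log2 fold change 0.75, SE 0.47, adjusted p = 0.306). Hoxd3 ranged from 0.321 to 5.59 CPM in S and from 1.28 to 6.78 CPM in DDKO (log2 fold change 0.62, SE 0.69). For both, S-1 was the lowest of all 9 libraries.

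On the other side, Hoxd13, the most posterior gene, was at 81.8, 68.7, 66.8 and 104 CPM in S and at 39.6, 42.3, 38.7, 27.1 and 59.9 CPM in DDKO. All DDKO libraries were below all S libraries, with DDKO-5 nearest to them. The log2 fold change was -0.95 (SE 0.20, adjusted p = 0.0135), and this call held under all 20 alternative settings. Hoxd12 was at 5.26, 3.21, 2.76 and 3.97 CPM in S and at 1.41, 0.854, 0.909, 1.34 and 3.18 CPM in DDKO. Only DDKO-5 reached the S range (log2 fold change -1.31, SE 0.39, adjusted p = 0.0478).

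Hoxd11 was at 10.7, 6.89, 5.90 and 9.69 CPM in S and at 2.82, 2.77, 3.64, 1.022 and 7.21 CPM in DDKO, with a log2 fold change of -1.24 (SE 0.42, adjusted p = 0.0731). Hoxd10 was at 9.69, 3.98, 8.72 and 7.15 CPM in S and at 1.41, 2.13, 4.33, 1.34 and 6.51 CPM in DDKO, with a log2 fold change of -1.23 (SE 0.46, adjusted p = 0.100). In both genes DDKO-5 was the highest DDKO library, and without it both were called, with log2 fold changes of -1.67 (adjusted p = 0.0106) and -1.66 (adjusted p = 0.0216). Over all libraries DESeq2 called both (adjusted p = 0.0222 for Hoxd11 and 0.0434 for Hoxd10), and limma-voom called Hoxd11 (adjusted p = 0.0219). Hoxd9 was at 0.873 to 1.86 CPM in S and 0.472 to 1.07 CPM in DDKO (log2 fold change -0.72, SE 0.35, adjusted p = 0.185).

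**Figure D3:**
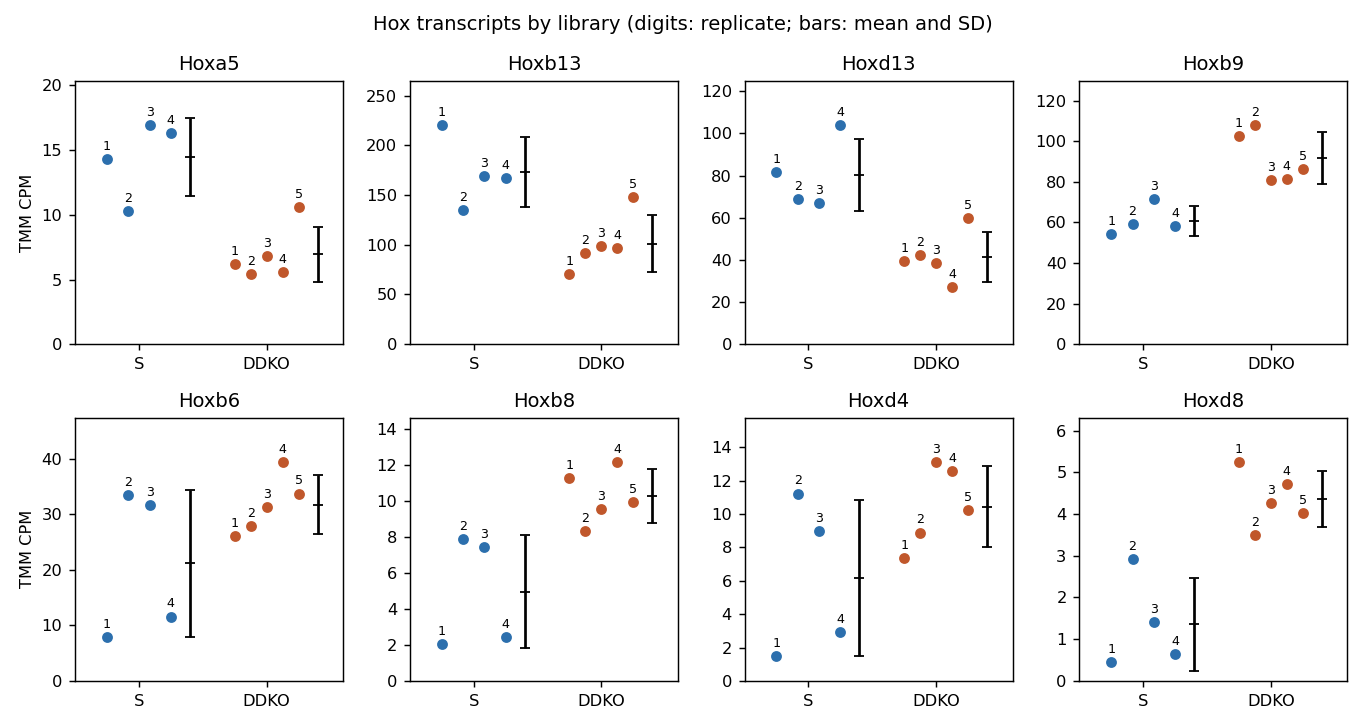
Each panel is a gene, with CPM after TMM scaling on the vertical axis from 0, a point for each library of S (blue) and DDKO (orange) numbered by replicate, and a bar for the mean and SD. Hoxb9, Hoxd8, Hoxb8 and Hoxd13 do not overlap between the genotypes, DDKO-5 is the highest DDKO library for Hoxa5, Hoxb13 and Hoxd13, and S-2 and S-3 stand apart from S-1 and S-4 for Hoxb6, Hoxb8 and Hoxd4.

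The libraries of S were not alike in 11 genes of the Hoxb and Hoxd clusters, of which Hoxb9 and Hoxd8 were called higher in DDKO. For each of Hoxb2 to Hoxb9, Hoxd3, Hoxd4 and Hoxd8, both S-2 and S-3 were above both S-1 and S-4, which makes 11 of the 27 tested Hox genes, beside 18.3% of all genes tested. The highest S library was 4.23 times the lowest for Hoxb6, 3.85 times for Hoxb8, 7.61 times for Hoxd4 and 6.48 times for Hoxd8. For Hoxa9 the ratio was 1.58 and for Hoxd13 1.56, and the median over all genes tested was 1.28. In DDKO the ratios of the same 4 genes, named here for their wide spread in S, were 1.52, 1.46, 1.78 and 1.51. Hoxb9 had ratios of 1.32 in S and 1.34 in DDKO, and Hoxd3 had ratios of 17.4 and 5.29. Some of the marker lists, given here for S-1 to S-4, also had S-2 and S-3 above S-1 and S-4, and others did not. The 12 mesenchyme and muscle genes, among them Col1a1 and Myh11, summed to 21.8, 31.1, 39.6 and 23.1 CPM, 10 genes of the small intestine to 36.2, 68.8, 50.7 and 38.98 CPM, and the colon genes to 4151, 6069, 5693 and 4599 CPM. Genes of enteric neurons and glia summed to 2.50, 1.13, 1.54 and 1.35 CPM, and leukocyte genes to 57.7, 61.1, 53.1 and 147 CPM. Their part in the Hox values was not tested.

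DDKO-5 stood apart in the other direction. It was the highest of the 5 DDKO libraries for 8 of the 10 tested Hoxa genes, for 4 of the 5 posterior Hoxd genes and for Hoxb13, 13 of the 27 tested Hox genes in all, beside 21.9% of all genes tested. It also had the lowest sum of the small intestine genes in DDKO, at 190 CPM where the other 4 had 421 to 664 CPM, and the highest level of Cdx1, at 277 CPM where the other 4 had 139 to 187 CPM. Whether these go together with its Hox levels was not tested.

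Summed over a cluster, the Hoxa genes reached 237 ± 29.6 CPM (SD, n = 4) in S and 172 ± 34.2 CPM (SD, n = 5) in DDKO, a log2 ratio of -0.46. The Hoxb genes reached 284 ± 25.8 CPM in S and 271 ± 26.2 CPM in DDKO (log2 ratio -0.07), a sum in which Hoxb9 was higher and Hoxb13 lower. The Hoxd genes reached 111 ± 14.3 CPM in S and 69.3 ± 17.8 CPM in DDKO (log2 ratio -0.68). The sum of Hoxd ranged from 98.6 to 131 CPM in S and from 52.9 to 98.7 CPM in DDKO, so that a DDKO library just reached the lowest S library.

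The composition of the clusters differed along with the sums. Posterior genes gave 98.0%, 80.9%, 86.7% and 95.9% of the Hoxd counts in S-1 to S-4 and 76.8%, 78.1%, 66.5%, 59.1% and 78.9% in DDKO-1 to DDKO-5. All 5 DDKO libraries were below all 4 S libraries, with means of 90.3% ± 8.01 (SD, n = 4) and 71.9% ± 8.71 (SD, n = 5). In Hoxb the posterior share was 82.3% ± 9.80 in S and 71.1% ± 4.22 in DDKO and the central share 14.9% ± 8.69 and 24.8% ± 4.10, with S-2 and S-3 within or near the DDKO range. In Hoxa the posterior share went the other way, from 59.7% ± 1.12 in S to 65.3% ± 1.76 in DDKO without overlap, with the central share at 24.0% ± 1.66 and 20.3% ± 1.63. These shares are descriptions of sums over chosen genes and carry no test.

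**Figure D4:**
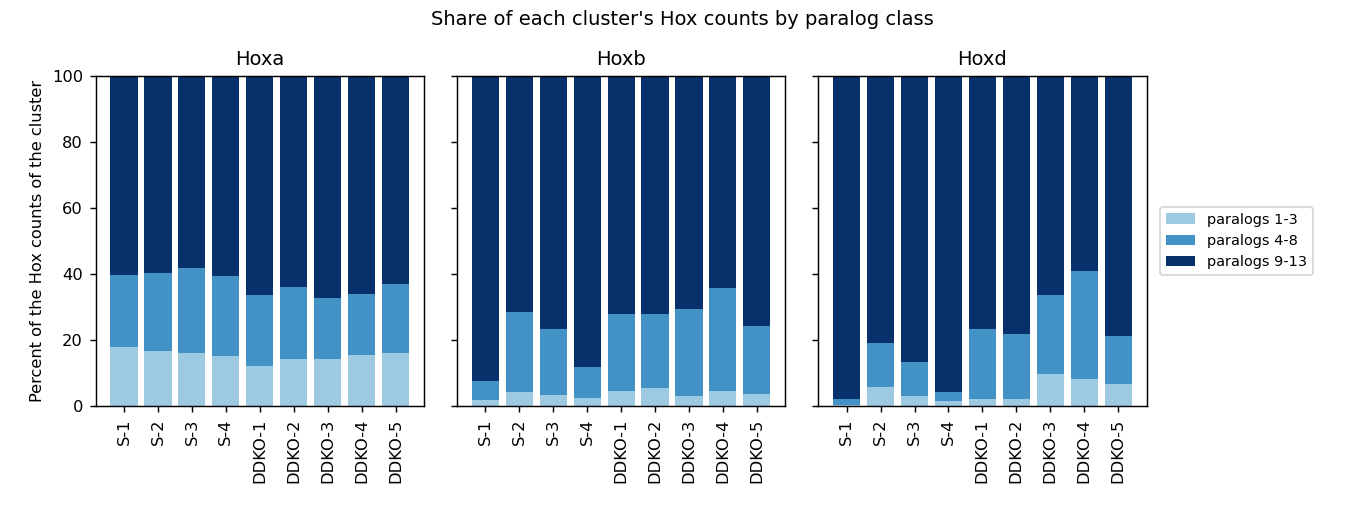
Stacked bars give, for each library, the percent of the Hox counts of the Hoxa, Hoxb and Hoxd clusters that came from paralogs 1 to 3, 4 to 8 and 9 to 13. The posterior share of Hoxd is between 80.9% and 98.0% in S and between 59.1% and 78.9% in DDKO, and that of Hoxa is higher in every DDKO library than in any S library.

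Grouped by paralog number across the clusters, the sum of paralog group 13 was 279.6 ± 47.1 CPM (SD, n = 4) in S and 162 ± 40.2 CPM (SD, n = 5) in DDKO. Paralog group 9 was at 121 ± 12.1 and 141 ± 13.9 CPM, with Hoxb9 up and Hoxa9 and Hoxd9 on the negative side. Paralog group 8, of which Hoxb8 and Hoxd8 were tested, was at 6.31 ± 4.15 and 14.7 ± 2.08 CPM, from 2.50 to 10.8 CPM in S and from 11.9 to 16.9 CPM in DDKO. Paralog group 5 was at 20.9 ± 4.30 and 13.5 ± 2.28 CPM, where Hoxa5 had means of 14.5 and 6.94 CPM.

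Transcripts that are not Hox genes lie within and beside the clusters. Of 17 such transcripts of a fixed list that have a row in the table, 5 were tested and 2 were lower in DDKO, both in the Hoxa cluster, beside 6.54% of all genes tested. Hoxa11os, the antisense transcript of Hoxa11, was at 158, 93.4, 146 and 152 CPM in S and at 77.9, 97.7, 55.2, 45.1 and 90.7 CPM in DDKO (log2 fold change -0.91, SE 0.23, adjusted p = 0.0267). The call was lost without S-1, S-3, S-4 or DDKO-3 (adjusted p up to 0.0795). Its reads and those of Hoxa11 cannot be told apart over the 568 exon bases that they share if the counting ignored strand. Mira, between Hoxa6 and Hoxa7, was at 25.7, 24.4, 32.1 and 36.0 CPM in S and at 21.8, 18.5, 17.4, 14.2 and 22.1 CPM in DDKO, without overlap (log2 fold change -0.65, SE 0.16, adjusted p = 0.0229), a call lost without S-3 or S-4 and with the replicate block (adjusted p up to 0.0778). Hottip, at the posterior end of Hoxa, was on the same side without passing the test (log2 fold change -0.60, SE 0.22, adjusted p = 0.0927). The Mir196a-1 row was at 9.95 to 12.9 CPM in S and 5.51 to 9.85 CPM in DDKO (log2 fold change -0.52, SE 0.17, adjusted p = 0.0728). It counts fragments over the precursor, not the mature microRNA shown above. Hotair, in the Hoxc cluster, and Haglr, in Hoxd, had 0 counts in every S library.

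The genes flanking the clusters were tested at 12 of 13 listed rows, of which 3 were lower in DDKO by edgeR, beside 6.54% of all genes tested. DESeq2 called 4 of the 12 in either direction, beside 19.1% of all genes, and limma-voom 5, beside 20.1%. Evx1, a homeobox gene beyond Hoxa13, was at 2.31, 2.26, 2.83 and 2.22 CPM in S and at 0.769, 0.854, 1.12, 0.629 and 0.775 CPM in DDKO, with a log2 fold change of -1.52 (SE 0.25, adjusted p = 0.00394) and no overlap. Evx2, its counterpart beyond Hoxd13, had a log2 fold change of -1.05 (SE 0.34, adjusted p = 0.0636). Skap2, at the anterior end of Hoxa, fell by 0.54 on the log2 scale (SE 0.09, adjusted p = 0.00509), and Calcoco1, listed with the Hoxc flank, by 0.70 (SE 0.19, adjusted p = 0.0364). The call of Calcoco1 was kept in only 2 of the 9 fits that left out a library, without DDKO-2 or DDKO-5 (adjusted p up to 0.0947 in the others). Mtx2, at the anterior end of Hoxd, and Skap1, beside the anterior end of Hoxb, were not called (log2 fold changes 0.11 and -0.03).

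**Figure D5:**
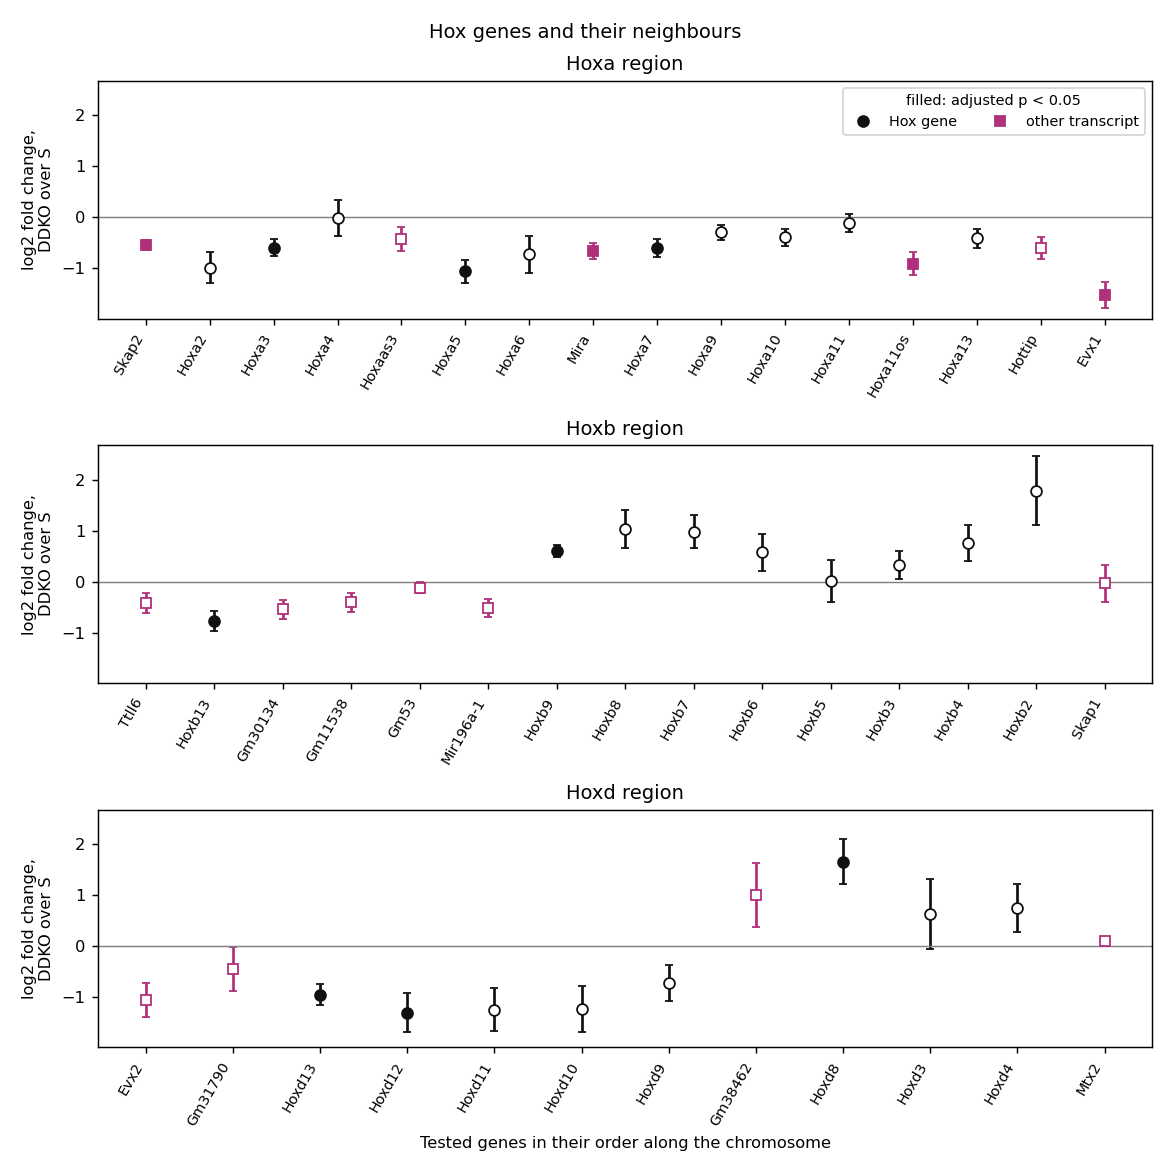
The tested genes of the Hoxa, Hoxb and Hoxd regions are drawn in their order along the chromosome, with the log2 fold change of DDKO over S and its SE on the vertical axis. Black circles are Hox genes, purple squares are other transcripts, and filled symbols had an adjusted p under 0.05. From Skap2 to Evx1 all 16 points of the Hoxa region lie below 0 (Hoxa4, at -0.01, turned positive with library size alone), and in the Hoxd region the points change sign between Hoxd9 and Hoxd8.

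Genes known to act on Hox clusters or with Hox proteins were followed as lists. Of the 9 TALE genes 4 were tested, of which Meis3 was lower. Meis3 was at 7.31, 5.59, 7.19 and 4.37 CPM in S and at 0.769, 1.64, 1.75, 1.89 and 1.94 CPM in DDKO (log2 fold change -1.94, SE 0.28, adjusted p = 0.00222). Cdx1 and Cdx2, the caudal genes that were tested, were not called over all libraries, with log2 fold changes of -0.32 (SE 0.18) and 0.04 (SE 0.10). Cdx1 was called lower by edgeR without DDKO-5 (log2 fold change -0.50, adjusted p = 0.0143). The same held in the libraries without Y-linked counts (-0.33, adjusted p = 0.0269) and with the replicate block (-0.52, adjusted p = 0.0282).

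Of 24 Polycomb genes 23 were tested. Suz12, a core subunit of the complex that methylates H3K27, was higher (log2 fold change 0.38, SE 0.10, adjusted p = 0.0338), and Ezh1, one of its catalytic subunits, was lower (log2 fold change -0.42, SE 0.11, adjusted p = 0.0321). Of 11 Trithorax genes and H3K27 demethylases 10 were tested and Kmt2d, a methyltransferase of H3K4, was lower (log2 fold change -0.36, SE 0.10, adjusted p = 0.0379). Of 14 retinoic acid genes 7 were tested and Aldh1a3, which makes retinoic acid, was lower (log2 fold change -2.25, SE 0.44, adjusted p = 0.00951). These 4 lists had 2 of 4, 2 of 23, 1 of 10 and 1 of 7 tested members called, beside 13.3% of all genes tested. Limma-voom called 6 of the 23 Polycomb genes, beside 20.1% of all genes. The calls of Suz12, Ezh1 and Kmt2d were each lost in 5 to 7 of the 9 fits that left out a library.

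Markers of place and of cell type also differed between the groups. Of 10 genes of the small intestine 7 were tested and 5 rose, beside 6.76% of all genes tested. They were Gata4, a transcription factor of the proximal gut (log2 fold change 2.20, SE 0.47, adjusted p = 0.0144), Slc10a2, the ileal bile acid transporter (3.46, SE 0.46, adjusted p = 0.00141), Fabp6 (2.84, SE 0.55, adjusted p = 0.00857), Sis (5.75, SE 0.70, adjusted p = 0.000985) and Apoa1, which had 0 counts in every S library. Apoa1 thus passed the filter on low counts through the DDKO libraries alone and could only come out higher, so the count of 5 is not free of the filter. Gata4 and Apoa1 each had a result in 14 of the alternative fits, where Fabp6 had one in 19. The call of Apoa1 was lost without any 1 of the S libraries, with robust dispersion and with the Y term (adjusted p up to 0.0823). The sum of the 10 was 36.2 to 68.8 CPM in S and 190 to 664 CPM in DDKO. Of 8 colon genes tested 1 was called, and it was lower. Of 10 epithelial genes Muc2, the mucin of goblet cells, fell (log2 fold change -1.62, SE 0.18, adjusted p = 0.000542). Among all genes tested, 6.54% were called lower. Mesenchyme and muscle genes summed to 21.8 to 39.6 CPM in S and 30.3 to 69.2 CPM in DDKO, with none of the 5 tested called by edgeR. Of these 5, 2 had an unadjusted p under 0.05, beside 4466 of all 14593 genes tested, and DESeq2 called 1, beside 19.1%. Endothelial genes summed to 8.08 to 8.97 and 5.98 to 10.8 CPM, and leukocyte genes to 53.1 to 147 and 49.4 to 93.0 CPM, with 0 called by edgeR, DESeq2 or limma-voom in either list and 0 at an unadjusted p under 0.05. Of the genes of enteric neurons and glia, which summed to 1.13 to 2.50 CPM in S and 2.12 to 3.85 CPM in DDKO, Elavl4 was higher (log2 fold change 2.54, SE 0.38, adjusted p = 0.00270). In bulk RNA, fewer cells that use a Hox gene and less of its RNA per cell cannot be told apart, and the part of these markers in the Hox differences was not tested.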

How the data were processed

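The authors deposited whole-number counts of reads per gene symbol for the 9 libraries, with no normalization and no pooling. The submitters' processing notes name HISAT2 2.0 and mm10. The counting program, its strand setting and the annotation are not given in the sources used here. Libraries were grouped by the genotype in the labels, and all columns were mapped (0 unmapped).

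The counts were filtered with filterByExpr by genotype, scaled with TMM and compared with edgeR's quasi-likelihood test (edgeR 4.0.16 in R 4.3.3), with Benjamini-Hochberg adjustment over all 14593 genes tested. A log2 fold change is DDKO minus S, and its SE is its size over the root of F. Library totals were 12487129 to 17120202 counts, TMM factors 0.956 to 1.09 and the biological coefficient of variation 21.2%. At most 3 counts was taken as the floor, and floors cover counting error only. Libraries of 1 genotype differed beyond sampling noise (chi-square of at least 9.92 per gene). Per-length levels used the exon union of GENCODE M21 basic, and positions and sequences came from RefSeq on GRCm38.p6, in which 41483 of the 46095 symbols (90.0%) and all 39 Hox genes were matched by symbol.

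The members, the gene lists and the tests were chosen with earlier results of these data known. The genes named are Hox genes, members of the lists with an adjusted p under 0.05, transcripts within or beside the clusters, and Cdx1, Cdx2, Prac1, Setd2 and Smad4, of which Prac1 is not analysed here. A few genes that this rule takes in are not reported here. Hox promoters and motifs named, Epcam, Col1a1 and Myh11 were chosen after values were seen. Alternatives were DESeq2 1.42.0, limma-voom (limma 3.58.1), robust dispersion, other scalings and filters, a replicate block, Y-linked counts as a term or a limit (over 1000), leaving out each library, and an unadjusted p under 0.05 with a fold over 1.5. The test was tested on simulated data.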

Additional observations from a re-analysis of the deposited data

Results flagged for a closer look

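In 4 of 54 groups checked, the highest or lowest library of a Hox gene lay far from the rest of its genotype, and chance gives such a gap in about 1 group of 20. In 3 of them the library was DDKO-5, the highest of DDKO, with Hoxa3 at 30.5 CPM (next 21.0), Hoxa5 at 10.6 CPM (next 6.85) and Hoxd12 at 3.18 CPM (next 1.41). In the fourth, Hoxa11 was at 9.37 CPM in S-1, the highest of S (next 7.30).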

How the results depend on the processing

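Beside 2 Hox genes higher, 6 lower and 1941 genes called in all, DESeq2 gave 4 Hox genes higher, limma-voom 4 (2927 genes in all), a minimum of 10 counts in every library 1, and an unadjusted p under 0.05 with a fold over 1.5 gave 5. With a term for Y-linked counts edgeR gave 0 higher (5 at an unadjusted p under 0.05, 1285 genes in all), and in the libraries without such counts 1 was higher and 10 were lower (2930 genes in all). Leaving out 1 library gave 1 to 2 higher, 1 to 11 lower and 847 to 2696 genes in all. The fits without S-3 and without DDKO-5 gave the lowest and the highest counts of lower Hox genes and of all genes, and the cause was not tested. Robust dispersion, other scalings and no filter kept both Hox counts within 1.5 times. The log2 ratios of the cluster sums stayed on their side of 0 throughout, for Hoxa from -0.57 to -0.38 and for Hoxd from -0.83 to -0.59 with each library left out.

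Among single genes, 12 Hox results changed sign, all of them near 0 and not called. Hoxa4 came to 0.038 with library size alone, 0.0017 with a minimum of 10 counts, 0.07 without S-4, 0.16 without DDKO-3, 0.07 without DDKO-4 and 0.09 without DDKO-5, in a range of -0.33 to 0.16 over the fits that left out a library. Hoxb5 came to -0.0071 with no filter, -0.23 without S-1, -0.23 without S-4, -0.0058 without DDKO-2 and -0.15 without DDKO-4 (range -0.23 to 0.33), and Hoxa11 to 0.0039 without S-1 (range -0.20 to 0.0039). Cdx2 came to -0.0104 with the replicate block, -0.0069 with the Y term, -0.0028 in the libraries without Y-linked counts, -0.045 without S-4 and -0.0028 without DDKO-5 (range -0.045 to 0.0905). Smad4 came to -0.18 with limma-voom, -0.14 with the block, -0.71 with the Y term, -0.70 in the libraries without Y-linked counts, -0.11 without DDKO-2 and -0.01 without DDKO-5 (range -0.11 to 0.37).

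The labels do not say whether the replicate numbers pair the libraries, and the correlations below are too few to decide it. Same-numbered libraries correlated at -0.10, -0.10, 0.02 and 0.09 in their deviations from the group means, and not every library correlated best with its own number. With the replicate block, to which DDKO-5 adds nothing, 2 Hox genes were higher and 11 lower, the higher ones being Hoxb9 and Hoxb7 (adjusted p = 0.0480), with Hoxd8 lost (adjusted p = 0.0572). Depth limits what can be said of Hoxb1, Hoxd1 and the Hoxc genes.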
